A study of Mus musculus with 3 samples.

Results

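NF-kB subunits and their inhibitors were followed in macrophages sorted from the colon of mice that carry myeloid deletions of the corepressor genes Tle3 or Tle4. The 10 members were found by their symbols among the 23997 genes of the deposited tables: the 5 subunit genes Nfkb1, Nfkb2, Rel, Rela and Relb, and the 5 inhibitor genes Nfkbia, Nfkbib, Nfkbie, Nfkbiz and Tnfaip3. All 10 had a row in every library and all 10 passed a filter on low values, set at 1 FPKM averaged over the libraries, which 11114 genes passed. FPKM is the density of sequenced fragments on a transcript, scaled by transcript length and library size.

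Tle3cKO mice carried floxed Tle3 (Tle3f/f) with Lyz2-Cre, Tle4cKO mice carried floxed Tle4 (Tle4f/f) with Lyz2-Cre, and WT mice carried Lyz2-Cre with no floxed allele. All were untreated C57BL/6 males of 9 weeks in the protocol, given as 8.9 weeks in the sample characteristics. Lyz2-Cre expresses Cre recombinase from the lysozyme locus of myeloid cells, so all 3 genotypes share that allele. Cells gated as CD64-positive, Ly6C-low and Siglec-F-negative were pooled from 3 Tle3cKO, 4 Tle4cKO and 4 WT mice before RNA extraction. Each genotype is therefore 1 library, with no replicate spread, and no difference given here has a standard error, a p-value or a replicate check. Ratios between libraries are given as log2 of (FPKM + 1) in one over (FPKM + 1) in the other, which understates differences of low genes.

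NF-kB proteins bind DNA as dimers of subunits that share a Rel homology domain, and IkB proteins hold those dimers in the cytoplasm through ankyrin repeats. Receptors for microbes and cytokines activate the IkB kinase complex, IkB is degraded, and freed dimers enter the nucleus, where they also induce genes of their own inhibitors. TLE proteins bind no DNA themselves and are recruited as corepressors by DNA-binding factors. Gut macrophages are known for weak inflammatory responses to bacterial products.

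The table total was 569961 FPKM in the library labelled Tle3cKO, 598023 in Tle4cKO and 610714 in WT. Absolute depth is unknown. Spacing of the low values put the depth relative to WT at 0.968 for the first of these and 1.21 for Tle4cKO. Tle3 stood at 70.7 FPKM in the library labelled Tle3cKO, 46.9 in Tle4cKO and 38.6 in WT, so the targeted gene was not lower there, and a value summed over the gene does not show the deleted exons. Tle4 stood at 11.01 FPKM in the library labelled Tle3cKO, 5.80 in Tle4cKO and 8.50 in WT. Because Tle3 goes against its label, that library is called by its label throughout, and each direction drawn from it or from WT carries that doubt. Of the macrophage markers, Csf1r, the CSF-1 receptor, stood at 406, 387 and 459 FPKM in the library labelled Tle3cKO, Tle4cKO and WT. Fcgr1, which encodes CD64, stood at 36.0, 39.2 and 33.3 FPKM, and Mertk at 7.65, 6.17 and 4.46. Cx3cr1, the fractalkine receptor of gut macrophages, stood at 7.64, 11.4 and 8.35 FPKM in the same order. Siglecf, of eosinophils and listed under its older symbol Siglec5, stood at 2.48, 2.07 and 2.90 FPKM, the monocyte gene Ly6c2 at 5.98, 6.52 and 9.38, and the eosinophil peroxidase gene Epx was listed at 0 in every library. Lyz2, the gene at the Cre locus, stood at 11.7, 11.3 and 10.4 FPKM.

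Differences between the libraries were small. No member had a log2 ratio of 0.32 or more in size in any of the 3 comparisons. Ratios of that size were held by 12.1% of all tested genes between the library labelled Tle3cKO and WT. The share was 11.1% between Tle4cKO and WT and 11.4% between Tle4cKO and the library labelled Tle3cKO. Such shares leave few genes or none in a set as small as the members, so the absence does not set them apart. The share among genes averaging 50 FPKM or more was not counted. Nfkb1, Rel and Nfkb2 were lower than WT in both other libraries under every scaling tried. Nfkbia, Nfkbiz and Tnfaip3 were lower in Tle4cKO than in WT and differed little in the library labelled Tle3cKO, where the direction of the first 2 depended on the scaling. In bulk RNA, fewer cells of a type and less RNA per cell cannot be told apart.

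The promoters of Rel and Nfkbia, the subunit and the inhibitor with the lowest ratios to WT in Tle4cKO, and of Nfkbie, which differs the other way in Tle4cKO, are shown because NF-kB is known to induce several of its own regulators. Promoter windows of RefSeq (GRCm38.p6) were found for 7 of the 10 members, with 10 start sites in all, and the 250 bases before each start were searched on both strands for a form of the kB motif, GGG then any 3 bases then TTCC, that was chosen with these sequences in view. Read on the opposite strand it is GGAA, any 3 bases, CCC. It was present at 8 of the 10 member start sites, belonging to 5 members, some of whose windows overlap, and at 4.65% of the 32851 promoter windows of all genes. The windows of Rela and Nfkbib held no match, which says only that these letters are absent there. Each line gives 250 bases, 5′ to 3′ on the gene's strand and ending just before the start site, with the match in capitals.
Rel, chr11:23770970-23771219, minus strand: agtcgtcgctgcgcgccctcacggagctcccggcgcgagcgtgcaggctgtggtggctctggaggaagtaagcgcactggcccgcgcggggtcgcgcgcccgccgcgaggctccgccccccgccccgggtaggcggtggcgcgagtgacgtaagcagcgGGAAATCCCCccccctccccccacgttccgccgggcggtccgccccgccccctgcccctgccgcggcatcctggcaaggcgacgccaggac
Nfkbia, chr12:55492648-55492897, minus strand: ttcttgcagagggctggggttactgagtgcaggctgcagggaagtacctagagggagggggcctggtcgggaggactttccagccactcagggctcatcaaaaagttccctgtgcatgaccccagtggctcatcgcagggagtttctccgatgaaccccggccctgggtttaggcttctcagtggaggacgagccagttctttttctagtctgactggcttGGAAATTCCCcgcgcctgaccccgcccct
Nfkbie, chr17:45555450-45555699, plus strand: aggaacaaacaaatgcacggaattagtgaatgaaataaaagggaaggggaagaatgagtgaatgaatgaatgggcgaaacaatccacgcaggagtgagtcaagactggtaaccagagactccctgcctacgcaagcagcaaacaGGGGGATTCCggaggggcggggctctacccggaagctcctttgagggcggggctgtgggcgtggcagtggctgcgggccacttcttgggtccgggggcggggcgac
Counted from the start site, the Rel match spans positions -91 to -82, the Nfkbia match -29 to -20 and the Nfkbie match -106 to -97. At the first Nfkb2 start site the matches GGAATTCCCC and GGGGCTTTCC lie at -38 to -29 and -11 to -2, and at the first Tnfaip3 start site GGAAATCCCC lies at -12 to -3. These windows lie partly or wholly in annotated exons, counted over all genes and both strands, and are not printed in full. A match is a run of letters and not a measured binding site.

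All 10 members were well expressed, and the order of their levels was nearly the same in every library. Among all genes of the table they ranked between 339 and 1487 in the library labelled Tle3cKO, between 411 and 1644 in Tle4cKO and between 349 and 1480 in WT. Averaged over the libraries, Nfkbia was highest at 233 FPKM, followed by Nfkb1 at 173, Rel at 140, Nfkb2 at 119, Tnfaip3 at 98.7, Nfkbie at 78.0, Relb at 70.3, Nfkbib at 69.3, Rela at 66.6 and Nfkbiz at 54.0. The ranges of Rel and Nfkb2 over the 3 libraries overlapped, as did those of Relb and Nfkbib and of Nfkbib and Rela. These ranges are over genotypes and are not a replicate spread. Rel stood above Nfkb2, and Nfkbib above Rela, within each library. Within single libraries the order was alike except that Nfkbib stood above Relb in WT.

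**Figure D1:**
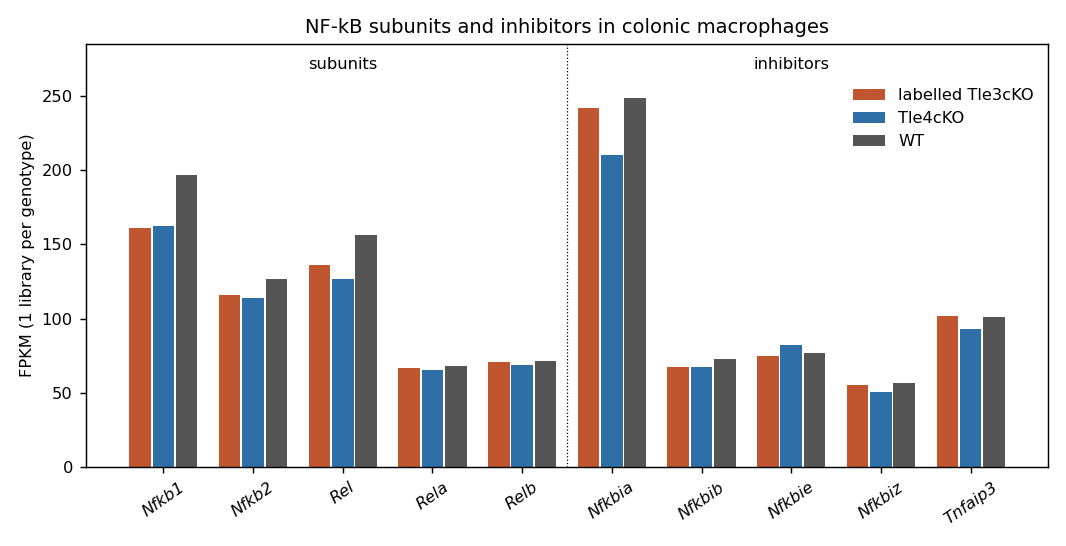
Levels of the 5 subunit and 5 inhibitor genes in FPKM (bars, vertical axis from 0), with 1 library each for the label Tle3cKO, Tle4cKO and WT. Nfkbia stands highest in every library, at 242, 210.0 and 248 FPKM, and the WT bar is the highest of the 3 for 8 of the 10 genes, the exceptions being Nfkbie and Tnfaip3. With equal totals WT is highest for 4.

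Among the subunits, Nfkb1 and Rel carried the largest differences. Nfkb1 encodes p105, which is processed to the DNA-binding p50 and also acts as an IkB itself (ENSMUSG00000028163.17, chromosome 3, 135584655 to 135691547, minus strand, mm10). It stood at 161 FPKM in the library labelled Tle3cKO, 162 in Tle4cKO and 197 in WT. The first 2 libraries lay close together and WT above them, with log2 ratios to WT of -0.29 and -0.28. Of all tested genes, 15.02% had a ratio at least as large in size in the first comparison and 14.9% in the second. At an average of 50 FPKM or more, 4.51% and 3.84% of genes had ratios as low or lower.

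Rel encodes c-Rel, a transactivating subunit known for lymphocyte and myeloid cytokine genes such as Il12b (ENSMUSG00000020275.9, chromosome 11, 23736847 to 23770970, minus strand). Its level was 136 FPKM in the library labelled Tle3cKO, 127 in Tle4cKO and 156 in WT. Its log2 ratios to WT were -0.20 and -0.30 in that order, the second being the lowest ratio of any member in either comparison. Of all tested genes, 27.9% and 12.6% had ratios at least as large in size. At an average of 50 FPKM or more, 11.9% and 3.11% of genes had ratios as low or lower. Il12b itself was low, at 1.88 FPKM in the library labelled Tle3cKO, 4.83 in Tle4cKO and 4.61 in WT, so it was not ordered as Rel was.

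Nfkb2 encodes p100, the precursor of p52 and the inhibitor of RelB in the non-canonical branch (ENSMUSG00000025225.15, chromosome 19, 46304320 to 46312385, plus strand). It stood at 116 FPKM in the library labelled Tle3cKO, 114 in Tle4cKO and 127 in WT, with log2 ratios to WT of -0.13 and -0.16. Its annotation overlaps that of Psd on the opposite strand, a gene at 6.59, 6.38 and 7.24 FPKM in the same order, and with strand-specific counting not stated, reads of the overlap cannot be told apart. These ratios lay just outside the middle 50% of all genes, which spanned -0.12 to 0.12 in the first comparison and -0.11 to 0.11 in the second.

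Rela and Relb differed least. Rela encodes p65, the main transactivating partner of p50 (ENSMUSG00000024927.8, chromosome 19, 5637483 to 5648130, plus strand), and stood at 66.5 FPKM in the library labelled Tle3cKO, 65.4 in Tle4cKO and 67.8 in WT. Relb, the partner of p52 (ENSMUSG00000002983.17, chromosome 7, 19606217 to 19629438, minus strand), stood at 70.8, 68.5 and 71.7 FPKM. The log2 ratios of Rela were -0.03 and -0.05 and those of Relb -0.02 and -0.06. In the library labelled Tle3cKO both signs turned positive with equal totals and when genes of at least 50 FPKM were aligned, so no direction is given for them there.

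Among the inhibitors, Nfkbia showed the widest gap. Nfkbia encodes IkB-alpha, the classical inhibitor whose gene NF-kB induces within its own feedback loop (ENSMUSG00000021025.8, chromosome 12, 55489410 to 55492647, minus strand). It stood at 242 FPKM in the library labelled Tle3cKO, 210.0 in Tle4cKO and 248 in WT, so Tle4cKO lay below both others. The log2 ratio was -0.24 for Tle4cKO to WT and -0.20 for Tle4cKO to the library labelled Tle3cKO. For the library labelled Tle3cKO to WT it was -0.04, a sign that turned with equal totals, to 0.06. Nfkbia was deposited under the same locus as Psma6, Ppp2r3c and 1110008L16Rik. Psma6, the highest of these others, stood at 88.1 FPKM in the library labelled Tle3cKO, 86.5 in Tle4cKO and 93.4 in WT.

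Nfkbiz and Tnfaip3 had the same order of Tle4cKO below the other libraries. Nfkbiz encodes IkB-zeta, an inducible nuclear IkB protein that is also needed to switch on some NF-kB targets (ENSMUSG00000035356.17, chromosome 16, 55811375 to 55838899, minus strand). Its level was 55.3 FPKM in the library labelled Tle3cKO, 50.4 in Tle4cKO and 56.4 in WT, with a log2 ratio to WT of -0.16 in Tle4cKO. Tnfaip3 encodes A20, a ubiquitin-editing enzyme that ends signalling upstream of the IkB kinases and is not an IkB protein (ENSMUSG00000019850.11, chromosome 10, 19000910 to 19015657, minus strand). It stood at 102 FPKM in the library labelled Tle3cKO, 92.9 in Tle4cKO and 101 in WT, with log2 ratios to WT of 0.01 in the first and -0.12 in the second.

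Nfkbib and Nfkbie went separate ways. Nfkbib encodes IkB-beta, which is resynthesised more slowly than IkB-alpha (ENSMUSG00000030595.15, chromosome 7, 28758251 to 28767512, minus strand), and stood at 67.6 FPKM in the library labelled Tle3cKO, 67.7 in Tle4cKO and 72.5 in WT. Its log2 ratio to WT was -0.10 in both, which shrank to -0.002 with equal totals in the library labelled Tle3cKO. Its annotation overlaps Sirt2 on the opposite strand, at 64.1, 63.2 and 63.1 FPKM in the same order of libraries, a level near that of Nfkbib. With strand-specific counting not stated, reads of that overlap cannot be told apart. Nfkbie encodes IkB-epsilon, another inducible inhibitor of Rel and RelA dimers (ENSMUSG00000023947.8, chromosome 17, 45555703 to 45563169, plus strand). It stood at 75.002 FPKM in the library labelled Tle3cKO, 82.1 in Tle4cKO and 76.8 in WT, and was the only member of the 10 higher in Tle4cKO than in WT, with a log2 ratio of 0.09.

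**Figure D2:**
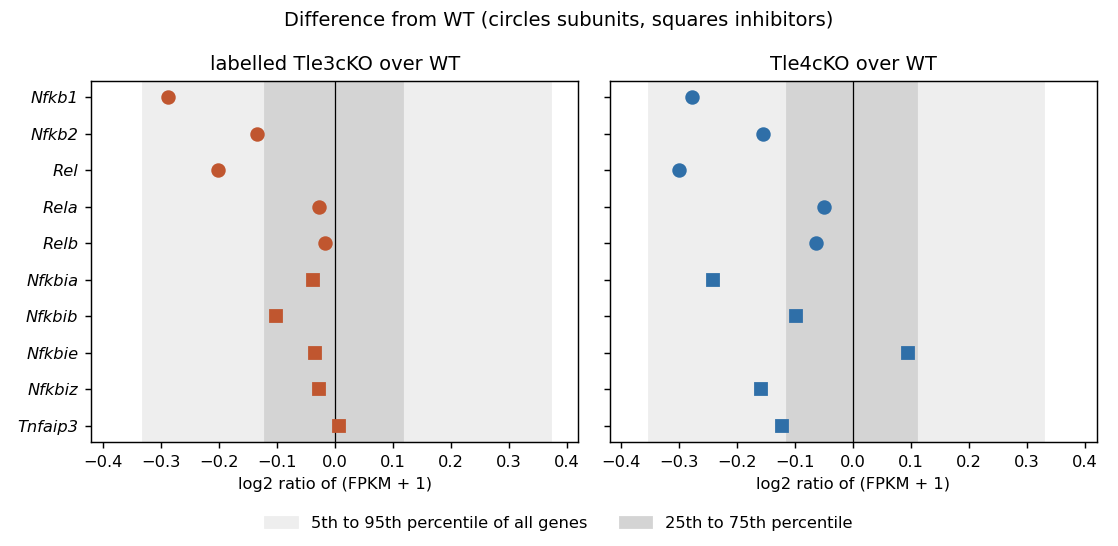
Log2 ratios of (FPKM + 1) for each member over WT, with 1 set of points per library (the label Tle3cKO, then Tle4cKO), circles for subunits, squares for inhibitors and grey bands for the spread of all 11114 tested genes. Every point lies within the band from the 5th to the 95th percentile of genes, with Nfkb1 and Rel nearest its lower edge and Nfkbie alone on the positive side in Tle4cKO. For the 1642 genes averaging 50 FPKM or more, not drawn, the 5th percentile was -0.28 in the first panel and -0.25 in the second. Nfkb1 lay below it in both panels and Rel in Tle4cKO.

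Counted together, 9 of the 10 members were lower in the library labelled Tle3cKO than in WT, where 52.4% of all tested genes were lower, but only 4 of 10 with equal totals, where 31.6% of all genes were lower. The median log2 ratio of the members was -0.04, beside -0.01 over all genes. Genes expressed at the members' level were themselves shifted: of the 1642 genes averaging 50 FPKM or more, 68.5% were lower in the library labelled Tle3cKO than in WT, with a median of -0.05. The 5 subunits had a median of -0.13 and the 5 inhibitors one of -0.03.

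In Tle4cKO against WT, 9 of 10 members were again lower, beside 50.6% of all tested genes, and the same 9 were lower under each of 4 other scalings. The median log2 ratio was -0.14 over the members, -0.16 over the subunits and -0.12 over the inhibitors, beside -0.003 over all genes and 0.002 over the genes of at least 50 FPKM. Both comparisons use the same WT library, so the direction of a member in one is not independent of its direction in the other. Of the 10 members 8 were highest in WT, as were 35% of all tested genes, but only 4 (Nfkb1, Nfkb2, Rel and Nfkbib) with equal totals, where 21.6% of all genes were, and the same 4 when genes of at least 50 FPKM were aligned.

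Between Tle4cKO and the library labelled Tle3cKO, 7 of 10 members were lower in Tle4cKO, beside 47.6% of all tested genes, and 9 of 10 with equal totals, where 63.6% of all genes were lower. The median log2 ratio was -0.02 over the subunits and -0.13 over the inhibitors. Nfkb1 and Nfkbib, the smallest differences here, were at 0.01 and 0.002 and changed sign with the scaling. Nfkbie, at 0.13, was higher in Tle4cKO under each of the 4 other scalings.

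**Figure D3:**
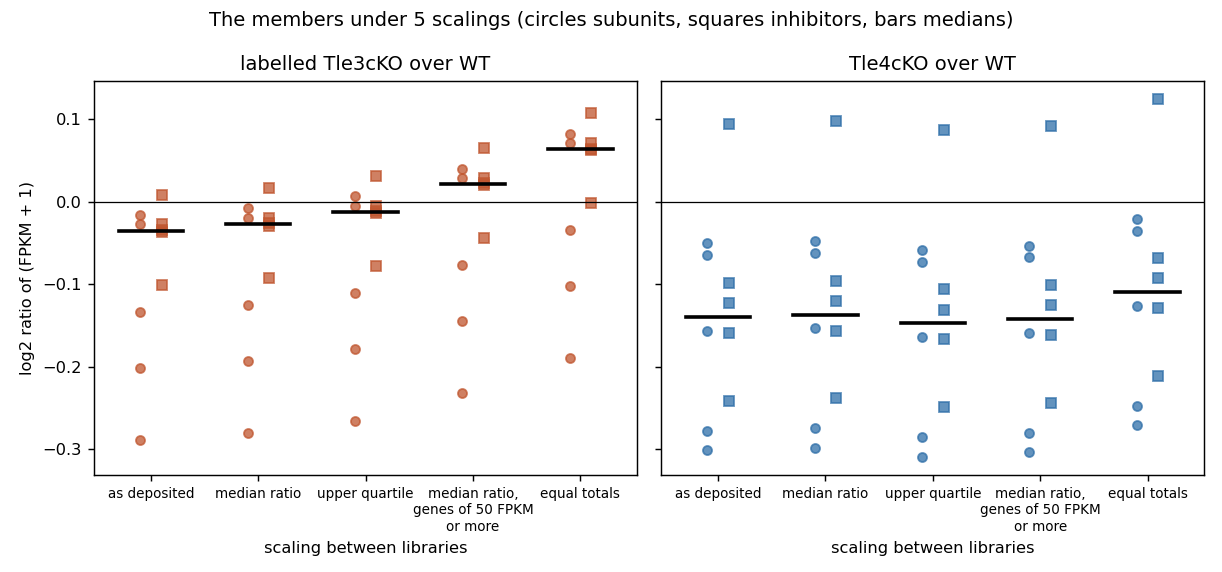
Log2 ratios to WT of the 10 members (circles subunits, squares inhibitors, bars their medians) under 5 scalings between libraries. In the library labelled Tle3cKO the median moves between -0.04 as deposited and 0.06 with equal totals while Nfkb1, Rel and Nfkb2 stay below 0, and in Tle4cKO it stays between -0.15 and -0.11.

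Ratios within a library do not depend on the scaling between libraries. The summed FPKM of Nfkbia, Nfkbib and Nfkbie divided by that of the 5 subunits was 0.6995 in the library labelled Tle3cKO, 0.670 in Tle4cKO and 0.642 in WT. The subunit sum was 549.9 FPKM in the library labelled Tle3cKO, 536.6 in Tle4cKO and 619.6 in WT, and the sum over the 3 inhibitors was 385, 359.8 and 398 FPKM. Without Nfkbia the ratio was 0.259, 0.279 and 0.241 in the same order, so both other libraries stayed above WT but changed places.

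Within the subunits, Nfkb1 made up 29.3% of the sum in the library labelled Tle3cKO, 30.2% in Tle4cKO and 31.8% in WT, and Rel 24.7%, 23.6% and 25.2%. Rela made up 12.1%, 12.2% and 10.9%, and Relb 12.9%, 12.8% and 11.6%. The shares of Rela and Relb were therefore higher, and those of Nfkb1 and Rel lower, in both other libraries than in WT. Nfkb1 exceeded Rela 2.42-fold in the library labelled Tle3cKO, 2.48-fold in Tle4cKO and 2.90-fold in WT. Among the inhibitors, the level of Nfkbie relative to Nfkbia was 0.310 in the library labelled Tle3cKO, 0.391 in Tle4cKO and 0.309 in WT, so Tle4cKO stood apart from the other libraries.

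**Figure D4:**
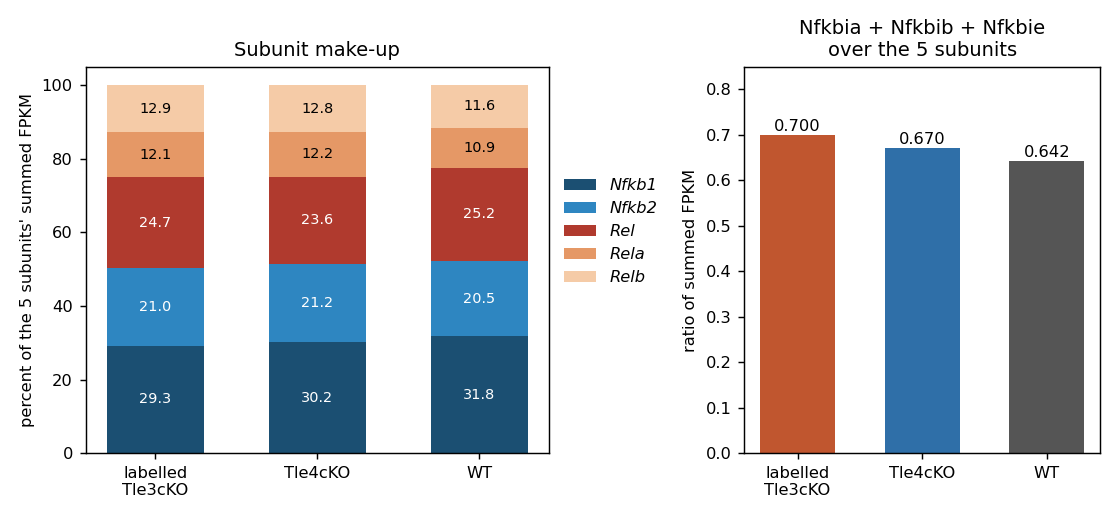
Left, the share of each subunit in the summed FPKM of the 5 subunits, in percent, for the library labelled Tle3cKO, Tle4cKO and WT. Right, the ratio of the summed FPKM of Nfkbia, Nfkbib and Nfkbie to that of the subunits (axis from 0), which is 0.6995, 0.670 and 0.642.

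The rest of the pathway was read from lists of genes, none of which was tested, since there is 1 library per genotype. Of the kinases that act on IkB, Chuk (IKK-alpha) stood at 24.2 FPKM in the library labelled Tle3cKO, 24.2 in Tle4cKO and 26.3 in WT. Ikbkb (IKK-beta) stood at 39.3, 38.6 and 37.4 FPKM, and the scaffold subunit Ikbkg (NEMO) at 21.96, 21.2 and 21.8. Map3k14 (NIK), the kinase that starts the non-canonical branch, stood at 62.3 FPKM in the library labelled Tle3cKO, 76.8 in Tle4cKO and 70.7 in WT, so it lay below WT in one and above it in the other. Irak4, the proximal kinase of the Toll-like and interleukin-1 receptors, was at 11.7, 12.9 and 14.7 FPKM, and Ripk2, the kinase below NOD receptors, at 35.7, 31.5 and 37.0. Of the 16 kinases, 11 in the library labelled Tle3cKO were lower than in WT, as were 10 in Tle4cKO. The same held for 52.4% and 50.6% of all tested genes, and for 68.5% and 49.3% of those averaging 50 FPKM or more. The medians of the kinases were -0.04 and -0.07. The first turned to 0.05 with equal totals and also turned positive when genes of at least 50 FPKM were aligned.

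Among adaptors and ubiquitin ligases, 15 of 22 were lower in the library labelled Tle3cKO and 16 of 22 in Tle4cKO than in WT. The shares over all tested genes were 52.4% and 50.6%, and over those averaging 50 FPKM or more 68.5% and 49.3%. The list medians were -0.08 and -0.10, the first turning to 0.01 with equal totals. Myd88, the adaptor of most Toll-like receptors, stood at 32.3 FPKM in the library labelled Tle3cKO, 31.96 in Tle4cKO and 37.2 in WT. Nod2, the cytosolic sensor of muramyl dipeptide, stood at 13.3, 14.2 and 18.3 FPKM, and Traf5 at 38.8, 36.1 and 46.0. Ticam1, the TRIF adaptor, went the other way in Tle4cKO, at 15.2, 19.7 and 14.6 FPKM. Bcl10, which links CARD proteins to MALT1, stood at 73.7, 79.4 and 87.8 FPKM.

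Among receptors that signal to NF-kB, 13 of 19 were lower in the library labelled Tle3cKO and 12 of 19 in Tle4cKO than in WT. The shares over all tested genes were 52.4% and 50.6%, and over those averaging 50 FPKM or more 68.5% and 49.3%. The list medians were -0.07 and -0.13, the first turning to 0.03 with equal totals. Tlr8 and Tlr7, neighbouring receptors of single-stranded RNA, were the only 2 of the 19 past 2-fold in either comparison, a size that no member reached and that 0.423% of all tested genes reached in the library labelled Tle3cKO, 0.648% in Tle4cKO and 0.729% between the pair. Tlr8 stood at 11.2 FPKM in the library labelled Tle3cKO, 12.99 in Tle4cKO and 36.8 in WT, and Tlr7 at 29.01, 23.95 and 61.8. Tlr4, the lipopolysaccharide receptor, stood at 13.5, 14.7 and 15.6 FPKM, and its co-receptor Cd14 at 1266, 1403 and 1302. Tlr2 was higher than WT in both, at 31.6, 25.2 and 22.9 FPKM.

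Other IkB proteins and partners of A20 showed no common direction, with 13 of 24 lower in the library labelled Tle3cKO and 11 of 24 in Tle4cKO than in WT, beside 52.4% and 50.6% of all tested genes. Their medians were -0.02 and 0.02, the first turning to 0.07 with equal totals and the second to -0.03 with a filter at 5 FPKM. Bcl3, a nuclear IkB protein, stood at 46.4, 46.9 and 46.4 FPKM in the library labelled Tle3cKO, Tle4cKO and WT. Tnip1, an A20-binding inhibitor, stood at 35.3, 32.5 and 40.5 FPKM, and Otulin, which cuts linear ubiquitin chains, at 47.6, 43.3 and 51.6. Nfkbil1 was at 9.22, 6.61 and 7.28 FPKM, and Commd1, which promotes the degradation of RelA, at 25.5, 32.7 and 26.3.

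The median ratio of the textbook target genes of NF-kB differed in sign between the comparisons. In the library labelled Tle3cKO 19 of 33 were higher than WT, beside 47.6% of all tested genes, with a median log2 ratio of 0.06. With equal totals 22 were higher, a share near the 68.4% of all genes, and the median was 0.15, beside 0.08 over all genes. In Tle4cKO 23 of 33 were lower, beside 50.6% of all genes, with a median of -0.12, which was -0.05 with no filter on low values. The difference between those directions was not tested. Tnf stood at 83.1 FPKM in the library labelled Tle3cKO, 58.6 in Tle4cKO and 68.1 in WT, and the neutrophil chemokine Cxcl2 at 1456, 1168 and 1205. Cxcl1 had the same order, at 411, 274 and 298 FPKM. Il1b was lower than WT in both, at 667, 600.3 and 815 FPKM, as was Ccl5, at 154, 173 and 283. The adhesion gene Icam1 stood at 86.0, 81.3 and 79.1 FPKM and the superoxide dismutase gene Sod2 at 56.5, 54.3 and 55.0. Bcl2a1d, a survival gene at 380.1, 359 and 490.3 FPKM, has near-identical copies among which reads may be divided wrongly.

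**Figure D5:**
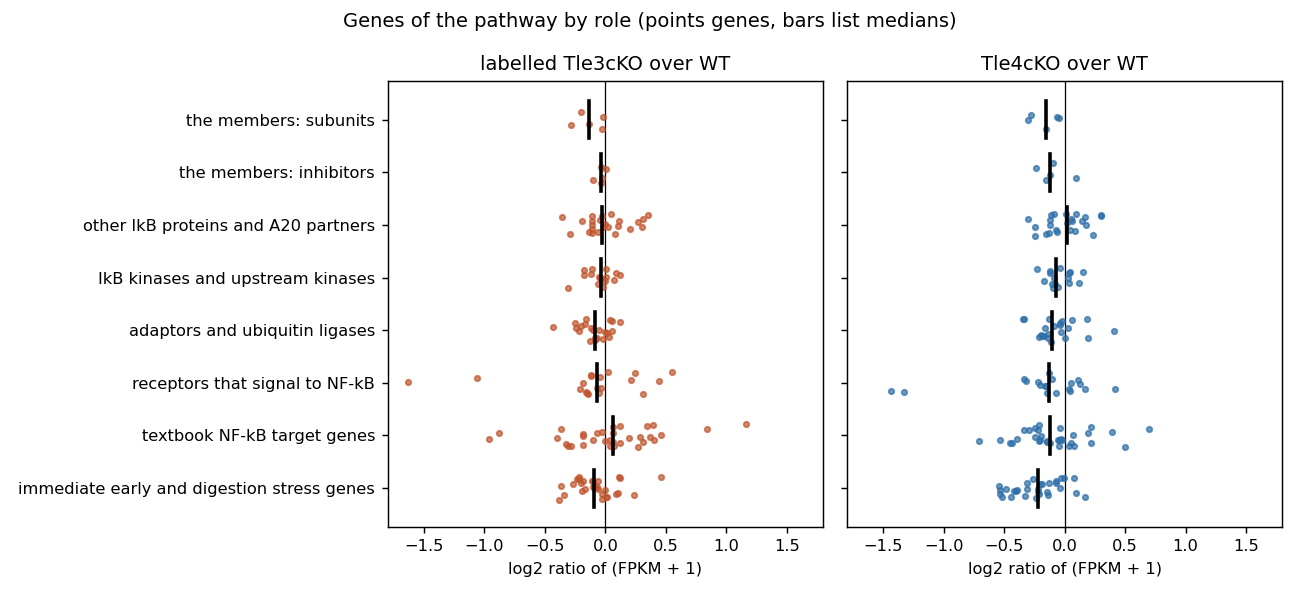
Log2 ratios of (FPKM + 1) to WT for the tested genes of each role in the pathway (points), with list medians (black bars), in 1 panel per library, the label Tle3cKO first. Tlr8 and Tlr7 stand far to the left in both panels, and target genes centre at 0.06 in the first panel and -0.12 in the second.

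Genes that tissue digestion and rapid stimulation are known to induce differed beside the members, and Nfkbia, Nfkbiz and Tnfaip3 are themselves of that kind. Of 30 immediate early and digestion stress genes, 22 in the library labelled Tle3cKO were lower than in WT, as were 27 in Tle4cKO. The shares over all tested genes were 52.4% and 50.6%, and over those averaging 50 FPKM or more 68.5% and 49.3%. The list medians were -0.09 and -0.22, the first of which turned to 0.01 with equal totals. Egr1 stood at 173 FPKM in the library labelled Tle3cKO, 117 in Tle4cKO and 159.9 in WT, and Dnajb1 at 66.6, 52.9 and 77.7. Of the genes higher in Tle4cKO than in WT, Junb stood at 699, 781 and 730 FPKM and Btg2 at 40.9, 42.8 and 38.1. The summed level of the list was 5693 FPKM in the library labelled Tle3cKO, 5370.2 in Tle4cKO and 6052 in WT. The part of digestion stress in the values of the members was not tested.

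Markers of other cells, several of which also express NF-kB genes, differed as well. Of the 10 listed B and plasma cell genes 9 had a row, and all 9 were higher than WT in both other libraries, with sums of 139.6 FPKM in the library labelled Tle3cKO, 287 in Tle4cKO and 105 in WT. Cd79a, of the B cell receptor, stood at 33.9, 29.9 and 19.5 FPKM. Of the 12 listed colonic epithelial genes 6 passed the filter and all 6 were higher than WT in both, with sums over the list of 9.61, 45.7 and 4.23 FPKM, Epcam at 2.02, 3.14 and 1.20, and Spink4 listed at 0 in WT. Enteric glial genes summed to 34.9 FPKM in the library labelled Tle3cKO, 12.1 in Tle4cKO and 35.4 in WT, and 5 of the 5 tested were lower in Tle4cKO than in WT. Fibroblast, endothelial and smooth muscle genes summed to 297, 281 and 248.8 FPKM, with 10 of 12 higher than WT in each. Monocyte genes summed to 183, 202 and 199 FPKM, mostly Plac8, while the chemokine receptor gene Ccr2 stood at 12.3 in the library labelled Tle3cKO, 28.3 in Tle4cKO and 28.3 in WT. T, NK and innate lymphoid genes summed to 436, 416 and 423 FPKM, mostly Il7r at 342, 332 and 337 and Cd4 at 72.8, 62.5 and 71.8. The T cell gene Cd3e stood at 1.55, 1.70 and 0.401 FPKM, Cd2 at 12.6, 13.6 and 8.72, and Lck at 2.04, 1.87 and 1.40. Each was higher than WT in both, while Nkg7, at 1.23, 1.40 and 1.44 FPKM, was lower in both. Tle4cKO had 3 of the 6 tested genes of this list above WT, and the library labelled Tle3cKO had 5. Dendritic cell genes summed to 345, 441 and 419 FPKM, mostly Ccr7 at 216, 316 and 305. Neutrophil genes summed to 172, 171 and 167 FPKM, with Camp listed at 0. Most of that was S100a8, at 93.5, 102 and 81.4, and S100a9, at 76.6, 67.0 and 84.0, which differed from WT in opposite directions. Eosinophil genes summed to 3.48, 4.11 and 3.83 FPKM, and macrophage genes to 4639.5, 4834 and 5189.7. Their part in the values of the members was not tested.

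The genes most like Nfkb1 and Rel in pattern were found by the distance between pairs of log2 ratios to WT, over 3 libraries and among 3627 genes averaging 20 FPKM or more. Nearest to Nfkb1 were Lpin2, a phosphatidate phosphatase, at 35.3, 35.1 and 42.8 FPKM in the library labelled Tle3cKO, Tle4cKO and WT, then Tmem37 and the leukocyte actin-binding gene Lsp1, at distances of 0.017, 0.017 and 0.022. Nearest to Rel were Tnip1, at a distance of 0.010, the junction adhesion gene F11r at 0.014 and the tubulin gene Tuba1c at 0.016. With 3 libraries such likeness is common: 78 genes lay within 0.1 of Nfkb1 and 96 within 0.1 of Rel.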

How the data were processed

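Per the file headers, the authors deposited FPKM per gene, 1 table for each of 3 libraries. The submitters' processing notes name mm10, Cufflinks 2.2.1 and TopHat2 2.1.0 but not their roles or settings. FPKM are not counts, so no count model was used, and with 1 library per genotype there was no test. Groups came from sample titles. Log2 ratios used a pseudocount of 1, for 11114 genes averaging 1 FPKM or more, and log2 ratios of 0.32 and 1 or more in size were counted. Relative depth came from the commonest ratio among genes under 0.3 FPKM (1846 and 1952 genes). Absolute depth is unknown, so no interval is given. Gene positions are from GENCODE M21 and promoters from RefSeq, both GRCm38. The members and gene lists were chosen with earlier results of these data known. Genes named are the members, Tle3, Tle4, fixed pathway and marker genes, examples from the 2 highest and 2 lowest of each pathway list at 5 FPKM or more, and the 3 nearest in pattern. Lyz2, Epx, Spink4, Camp, S100a8, S100a9, Plac8, Ccr2, Il7r, Cd4, Cd3e, Cd2, Lck, Nkg7, Mertk, Ccr7, Bcl3, Egr1 and Il12b were named after their values were seen. Only the recovery of seeded changes of 2-fold or more as log2 ratios was tested on simulated data, a size no member reached. The scalings, relative depth, ratios within a library, likeness and motif search were not. Python 3.11.15, numpy 2.4.6, pandas 2.3.3 and matplotlib 3.10.9 were used. Alternatives were other pseudocounts, filters, fold sizes and scalings (equal totals, upper quartiles or median ratios). An FPKM of exactly 0 can be a failed estimate.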

Additional observations from a re-analysis of the deposited data

How the results depend on the processing

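No paired analysis was possible because each genotype has 1 library, and for the same reason no replicate could be left out. A pseudocount or filter cannot change the sign of a member, so only the 4 scalings bear on it. No member reached 1.5-fold or 2-fold under any setting. For the library labelled Tle3cKO to WT, equal totals moved the median log2 ratio of the members to 0.063, with 4 members lower, and aligning genes of at least 50 FPKM, chosen after seeing the data, moved it to 0.021, also with 4 lower. For Tle4cKO to the library labelled Tle3cKO these settings gave medians of -0.10 and -0.095. The ratio of IkB to subunit sums was 1.09 times that of WT in the library labelled Tle3cKO and 1.04 times in Tle4cKO, the second of which became 1.16 without Nfkbia. Over those scalings, 18 of 120 single-member values and 10 of 72 list medians changed sign. Over all genes, those at least 2-fold higher and lower numbered 24 and 23 for the library labelled Tle3cKO to WT (90 and 60 with a pseudocount of 0.1, 7 and 10 with 5, 11 and 14 with the filter at 5 FPKM, 41 and 20 with equal totals). For Tle4cKO to WT they numbered 18 and 54 (55 and 104, 7 and 15, 6 and 23, 18 and 49), and for Tle4cKO to the library labelled Tle3cKO 23 and 58 (50 and 145, 9 and 12, 11 and 28, 21 and 69). Without a filter, 17009 genes gave 34 and 35, 32 and 62, and 40 and 66. At 1.5-fold the counts were 177 and 121, 134 and 189, and 99 and 238. The cause of these shifts was not tested.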
